A study of Mus musculus with 14 samples.

Results

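Among cells of the *Atoh1* lineage sorted from the mouse hindbrain at E14.5 (in days of embryonic development), a small population of neurons carried transcripts of *Olig2* and *Foxp1* together and lacked transcripts of 4 Hox genes of the hindbrain. These *Olig2* *Foxp1* Hox-negative neurons, called members here, were chosen by raw counts of unique molecular identifiers (UMIs, each one counted RNA molecule). A member had at least 1000 genes, less than 10% mitochondrial UMIs, at least 1 UMI of *Olig2*, at least 1 of *Foxp1* and at least 5 of *Mapt*, a microtubule-associated protein of differentiated neurons. It also had 0 UMIs of *Pax6*, 0 of *Pax5*, 0 of *Hoxb2*, *Hoxb3*, *Hoxb4* and *Hoxb5* together, and at most 1 of *Foxp2*. The limits held in 799 of the 49696 cells that passed the quality limits at E14.5, out of 150188 barcodes in the 14 libraries of the series, and in 799 of 13898 E14.5 neurons that had at least 5 UMIs of *Mapt* and none of the 4 Hoxb genes.

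The study asked how a partial loss of *Atoh1* function changes the neurons that descend from *Atoh1*-expressing progenitors. Control embryos were *Atoh1* Cre/+; *Rosa* lsl-tdTomato/+, and *Atoh1* S193A/- embryos were *Atoh1* Cre/S193A; *Rosa* lsl-tdTomato/+, on the C57BL/6J strain. Cre takes the place of the *Atoh1* coding region, so the controls also carried 1 null allele, and S193A changes a single serine, so that the level of *Atoh1* RNA does not check the genotype labels. Living tdTomato+ cells of 1 whole hindbrain per embryo were sorted for each library, with 3 control embryos and 3 *Atoh1* S193A/- littermates at E14.5, and a shared replicate number was read as a shared litter. The label is permanent in any cell that has expressed Cre and does not depend on the cell's current state.

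The rhombic lip, the dorsal edge of the hindbrain, holds *Atoh1*-expressing progenitors that give rise to glutamatergic neurons of the cerebellum, the pons and the medulla. *Olig2* encodes a basic helix-loop-helix (bHLH) transcription factor best known from the ventral neural tube, where it marks progenitors of motor neurons and of oligodendrocytes, and *Foxp1* encodes a forkhead factor that acts with Hox proteins in limb-innervating motor neurons. Hox genes are expressed in the hindbrain behind its most rostral segment, so neurons without Hox transcripts are expected from its rostral end, including the cerebellar region. *Neurod6* encodes a neuronal bHLH factor of differentiating glutamatergic neurons, and *Fgf10* a secreted fibroblast growth factor.

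The 6 E14.5 libraries held between 121762137 and 193872318 UMIs, and the median member held between 16095 and 23063 UMIs in a library. The headers of control libraries 1 and 2 name Cell Ranger version 3.1.0 as the counting software, those of the remaining 4 libraries version 5.0.1. Between 15 and 34 barcodes occurred in both libraries of any pair at E14.5, and none of these shared barcodes belonged to a member in both. Leaving out the 7.5% of cells with the highest doublet scores removed between 0 and 4 members per library. Both libraries of replicate number 2 stood apart from the other 4 in many genes, as described near the end, and the 16 genes with the largest differences in each population comparison were also tested without them. *Atoh1* S193A/- library 3 held many UMIs of *Ttr*, a transthyretin of choroid plexus, in members, *Olig2*-zero neurons and *Foxp2* neurons. A *Ttr* UMI was found in 98.9% of its members, and across the libraries in 49.2% of members and 57.7% of cycling cells.

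The limits removed cells in steps. Of 5045 cells with a UMI of *Olig2*, 2781 had at least 5 UMIs of *Mapt*, 1985 of these had *Foxp1*, 1315 of these had no *Pax6*, 1150 no *Pax5*, 1054 at most 1 UMI of *Foxp2*, and 799 no UMI of the 4 Hoxb genes. The median member had 4 UMIs of *Olig2* and 5 of *Foxp1*, with highest counts of 33 and 44. A single UMI of *Olig2* was held by 130 members (16.3%), and a single UMI of *Foxp1* by 194 (24.3%). The members therefore included cells at the edge of the limits, and the level of *Neurod6*, which the limits did not use, was set beside each edge. Members with 1 UMI of *Olig2* had 278 CPM of *Neurod6* (CPM are UMIs of a gene per 1000000 UMIs of the summed cells), and the 1166 otherwise equal cells with 0 UMIs of *Olig2* had 88.2 CPM. On the *Foxp1* side, *Neurod6* stood at 303 CPM in members with 1 UMI and at 293 CPM in 275 otherwise equal cells with 0. One UMI of the Hoxb genes left the level at 296 CPM (127 cells) against 310 CPM in members. Cells with 1 UMI of *Pax6* had 231 CPM (72 cells) and cells with 1 UMI of *Pax5* 187 CPM (33 cells). At the limit on *Mapt*, 12 members with 5 UMIs had 264 CPM and 3 cells with 4 UMIs had 328 CPM. Just inside the limit on *Foxp2*, members with 1 UMI had 324 CPM, and just outside it, cells with 2 UMIs had 390 CPM (31 cells).

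Of the markers *Neurod6* and *Fgf10*, which the limits did not use, *Neurod6* was the more widespread. Its level per library was 294, 402 and 206 CPM in control libraries 1 to 3 and 239, 476 and 226 CPM in *Atoh1* S193A/- libraries 1 to 3. A UMI of *Neurod6* was detected in 91.5% ± 6.69 of members (SD, n = 6 libraries), from 80.9 to 98.7%. After each cell was thinned to 8000 UMIs, the share was 80.0%. Cycling cells of the same libraries, which should lack this neuronal gene, had a UMI in 15.6% (7.03% thinned), although their median depth was higher, at 22119 to 27570 UMIs. Both libraries of replicate number 2 had the highest levels.

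*Fgf10* was a transcript of a minority of members. It was found in 24.5% ± 14.3 of them (SD, n = 6), ranging from 8.51 to 50.0% between libraries, and in 0.455% of cycling cells. Its level was 16.8, 31.6 and 11.1 CPM in control libraries 1 to 3 and 7.1, 72.7 and 18.3 CPM in *Atoh1* S193A/- libraries 1 to 3. A UMI of *Neurod6* and of *Fgf10* occurred together in 196 members, *Neurod6* alone in 535, *Fgf10* alone in 9 and neither in 59. *Olig2* itself stood at 398, 288 and 304 CPM in control libraries 1 to 3 and 289.7, 329 and 282 CPM in *Atoh1* S193A/- libraries 1 to 3, and *Foxp1* at 435, 475 and 448 CPM in control libraries 1 to 3 and 357, 309 and 383 CPM in *Atoh1* S193A/- libraries 1 to 3. The 3 *Atoh1* S193A/- values of *Foxp1* lay below the 3 control values, which is a description only, since cells without a UMI of *Foxp1* were left out. Since *Foxp1* and *Olig2* chose the members, their levels were not tested.

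Most members had *Slc17a6*, a transcript of glutamatergic neurons, although 3 of 6 genes of the glutamatergic list lay under 5 CPM. *Slc17a6* was not particular to members. It was found in 76.5% of *Olig2*-zero neurons, 69.9% of *Foxp2* neurons and 87.6% of Hox-positive *Olig2* *Foxp1* neurons, all described further on. A UMI of *Slc17a6*, the vesicular glutamate transporter of hindbrain neurons, was found in 88.7% of members, against 25.3% of cycling cells, and a UMI of *Gad1* or *Gad2*, the enzymes of GABA synthesis, in 0.725 and 2.0%, against 1.26 and 7.86% of cycling cells. The LIM homeobox gene *Lhx9*, common in dorsal *Atoh1*-derived neurons, was found in 88.9%, against at most 24.4% of cycling cells in any library, and the zinc finger gene *Zic1* in 84.2%, against a mean of 97.2% of cycling cells. WPRE, a sequence of the reporter transgene, was found in 97.2%, against 92.0% of cycling cells, and *Atoh1* itself, which is turned off as neurons differentiate, in 17.3%, against 65% of cycling cells.

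Genes of a list of astroglia and progenitors were present as well. The summed level of the 10 genes was 167, 158 and 215 CPM in control libraries 1 to 3 and 267, 338 and 369.5 CPM in *Atoh1* S193A/- libraries 1 to 3, with *Aqp4* at 0 and 3 of 10 genes under 5 CPM. All *Atoh1* S193A/- libraries lay above the controls in this sum, which was noticed after the values were seen, and 0 of 4 tested genes of the list were called between genotypes. Sums were taken for 33 lists, and how many of them part the genotypes was not counted. The sum of 11 GABA and glycine genes parted the other way, at 32.4 to 39.6 CPM in control and 14.2 to 23.7 CPM in *Atoh1* S193A/- libraries. Such a separation of a single list is therefore a description. *Vim*, an intermediate filament gene of progenitors and young neurons, stood at 87.4, 133 and 96.1 CPM in control libraries 1 to 3 and 148, 307 and 136 CPM in *Atoh1* S193A/- libraries 1 to 3. *Vim* and *Nes*, another progenitor filament gene, were higher in members than in *Olig2*-zero neurons (log2 differences of 0.57 ± 0.12 and 0.59 ± 0.19, edgeR FDR = 0.0041 and 0.0443), and *Vim* was also higher than in *Foxp2* neurons (0.88 ± 0.14), both populations being described further on. The part of such cells or RNA in the other differences was not tested.

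Neither of the classic *Olig2*-bearing fates was seen at the level of its defining genes. Of 9 oligodendrocyte-lineage genes, *Sox10*, *Nkx2-2* and *Gpr17* had 0 UMIs in all 799 members, and *Pdgfra* lay at 0.191 CPM. The 0 allows a share of cells with a UMI of up to 0.375%, a limit that covers counting error over pooled cells only and not differences between embryos. *Olig1*, at 51.5 ± 20.5 CPM (SD, n = 6), and *Mbp*, at 13.0 ± 1.91 CPM, exceeded 5 CPM, 6 of the 9 genes lay below it, and the summed level of the 9 genes ranged from 54.8 to 103 CPM. All 12 motor neuron and cholinergic genes were below 5 CPM, with *Isl2* and *Mnx1* at 0 and a summed level of 5.91 to 14.9 CPM. Microglial and endothelial genes summed to at most 3.60 CPM in any library, erythroid genes to 4.23 to 47.9 CPM, and 10 genes of dividing cells to 63.4 to 84.0 CPM. The limits themselves required *Olig2*, *Foxp1* and *Mapt*, so these say nothing of the label, and *Fgf10* was found in at most 50.0% of the cells of any library.

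*Olig1*, the paralog and neighbor of *Olig2*, was found in a minority of members. *Olig2* lies on chromosome 16 from 91225457 to 91228677 and *Olig1* from 91269772 to 91271933 on the same strand (GRCm38), 41.1 kb downstream. *Olig1* stood at 84.3, 34.4 and 63.7 CPM in control libraries 1 to 3 and 56.8, 32.7 and 37.1 CPM in *Atoh1* S193A/- libraries 1 to 3. It was found in 38.4% of members, in 1.62% of cycling cells, and in 26.4% of *Olig2* *Foxp1* neurons with Hoxb transcripts, described further on, of which 82.6% had *Neurod6*. Whether reads of the neighboring genes could be exchanged was not tested. *Olig1* and *Neurod6* occurred together in 282 members, and *Neurod6* was found in 93.1% of members with *Olig1* and in 90.5% of those without.

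A difference in the share of members between genotypes was not shown by these libraries. The 3 control libraries gave 128, 159 and 173 members and the 3 *Atoh1* S193A/- libraries 94, 156 and 89. As a share of cells passing the quality limits, this was 2.00, 1.79 and 1.78% in control libraries (1.86% ± 0.121, SD, n = 3) and 1.18, 1.88 and 1.05% in *Atoh1* S193A/- libraries (1.37% ± 0.445, SD, n = 3). The exact 95% binomial intervals, which cover counting error only, ran from 1.67 to 2.37% in the highest library, control 1, and from 0.845 to 1.29% in the lowest, *Atoh1* S193A/- library 3. In litters 1 and 3 the mutant share was 0.592 and 0.59 of that of the control littermate, in litter 2 it was 1.05 of it, and the groups overlapped. When the limits were applied to cells thinned to 8000 UMIs, the shares were 1.64, 1.64 and 1.60% in control libraries and 0.846, 1.54 and 0.866% in *Atoh1* S193A/- libraries, so that litter 2 fell as well and the groups did not overlap (log2 difference -0.64, exact permutation p = 0.1, the smallest possible). Without thinning, the difference of -0.48 on the log2 scale did not pass an exact two-sided permutation test (p = 0.3). The smallest p that 3 libraries against 3 can give is 0.1, and over the 3 pairs of littermates an exact sign-flip test gave p = 0.5 where the smallest possible is 0.25.

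Counted among Hox-negative neurons in place of all cells, the members' share was 7.30, 5.49 and 5.88% in control libraries (6.22% ± 0.951, SD, n = 3) and 5.62, 5.38 and 5.12% in *Atoh1* S193A/- libraries (5.38% ± 0.248, SD, n = 3). The groups overlapped, with a log2 difference of -0.20 (exact permutation p = 0.2). Within litters, the share of the *Atoh1* S193A/- embryo was 0.77, 0.981 and 0.871 of that of its control, lower in all 3, a number of pairs at which a sign-flip test cannot give a p under 0.25.

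**Figure D1:**
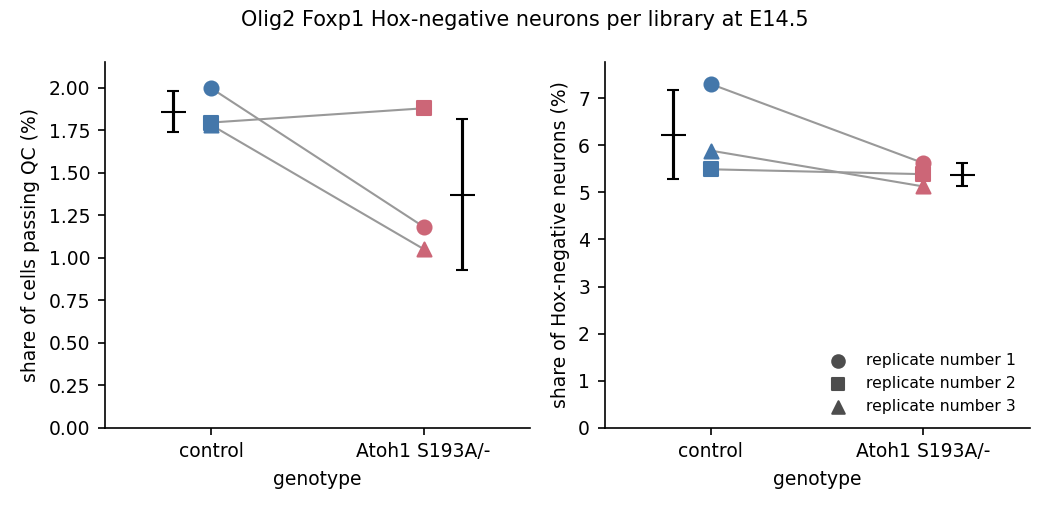
Share of E14.5 cells passing the quality limits (left) and of Hox-negative neurons (right) that were *Olig2* *Foxp1* Hox-negative neurons, in percent. Each point is a library, lines join littermates, and bars give the mean ± SD of 3 libraries per genotype. Litters 1 and 3 fall from control to *Atoh1* S193A/- in the left panel, and litter 2 does not.

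The first comparison was with 1166 *Olig2*-zero neurons, which met every limit except that they had 0 UMIs of *Olig2*. They are a mixture that may hold cells whose *Olig2* went uncounted, and their median cell had 13202.5 to 21950 UMIs per library, close to the depth of the members. UMIs were summed per library and population and compared within libraries by edgeR, and a gene was called at a false discovery rate (FDR) under 0.05 with an absolute log2 difference over 0.25. Of 9677 genes tested, 15.4% were called, 6.79% higher (657 genes) and 8.65% lower (837 genes) in members. A gene entered when a UMI of it was found in at least 10% of the cells of either population. Where it was found in under 10% of the cells of the other, this filter set its direction, so such a gene is given here and in the next comparisons as a description, with no FDR, and is left out of the counts of gene lists. Among the 9068 genes found in at least 10% of both populations, 13.3% were called, 6.3% higher and 7.05% lower. The 10 genes of the limits took no part in the test, and the values of *Neurod6* and *Fgf10*, which named the population, are a description.

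*Neurod6* ranged over 206 to 476 CPM (median 267) in members and 44.7 to 149.6 CPM (median 74.9) in *Olig2*-zero neurons, with a log2 difference of 1.87 ± 0.09 (SE). *Fgf10*, found in under 10% of *Olig2*-zero neurons, differed by 1.52 ± 0.20. The ranges of *Neurod6* did not overlap, and 38.8% of *Olig2*-zero neurons had a UMI of it.

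The genes with the largest positive differences came from several families. *Olig1* (6.91 ± 0.26), the calcium-binding protein gene *Tesc* (2.50 ± 0.21), the orphan nuclear receptor gene *Esrrb* (2.33 ± 0.15) and *Cnpy1* of the canopy family (1.97 ± 0.19) were found in under 10% of *Olig2*-zero neurons, and their values are a description. *Esrrb* ranged over 23.7 to 41.6 CPM (median 32.9) in members and 4.33 to 8.4 CPM (median 7.03) in *Olig2*-zero neurons. *Syce2*, known as a component of the meiotic synaptonemal complex, ranged over 49.6 to 118 CPM (median 74.2) in members and 8.96 to 17.4 CPM (median 13.1) in *Olig2*-zero neurons, a log2 difference of 2.69 ± 0.19 (SE, edgeR FDR = 8.9e-07). *Nfib*, a transcription factor of the nuclear factor I family, ranged over 353 to 1063 CPM (median 419) against 54.6 to 136 CPM (median 107), a difference of 2.36 ± 0.17 (SE, edgeR FDR = 1.6e-06). Its 2 highest values were both in litter 2, and even the lowest member value lay above the highest of the *Olig2*-zero neurons. The somatostatin receptor gene *Sstr2* (log2 difference 2.08 ± 0.21 SE, edgeR FDR = 2.4e-05) and the BH3-only cell death gene *Hrk* (log2 difference 2.02 ± 0.14 SE, edgeR FDR = 8.2e-07) were also higher. The rule that chose the genes with the largest differences required the same direction in all 6 libraries.

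Transcription factors were among the genes with the largest negative differences. *Zfhx3*, a zinc finger homeobox factor, ranged over 13.6 to 49.6 CPM (median 24.5) in members and 215 to 684 CPM (median 359) in *Olig2*-zero neurons without overlap (log2 difference -3.81 ± 0.19 SE, edgeR FDR = 7.6e-08), and *Mab21l2*, a developmental regulator, was lower (log2 difference -3.44 ± 0.10 SE, edgeR FDR = 1.2e-09). Found in under 10% of members, and so a description, were the next 5. *Nr4a2*, an orphan nuclear receptor, ranged over 3.08 to 19.5 CPM (median 4.43) in members and 26.2 to 179.7 CPM (median 90.4) in *Olig2*-zero neurons, a log2 difference of -3.85 ± 0.40. *Zfhx4*, a relative of *Zfhx3*, ranged over 5.3 to 25.2 CPM (median 10.4) against 77.2 to 220.4 CPM (median 108), a difference of -3.36 ± 0.19. *Tac1*, which encodes the precursor of substance P, differed by -3.62 ± 0.24, *Hpca*, a neuronal calcium sensor gene, by -3.57 ± 0.31, and *Hs3st4*, a heparan sulfate sulfotransferase gene, by -3.22 ± 0.32. Of the genes found in at least 10% of both populations, *Syce2*, *Nfib*, *Sstr2*, *Hrk*, *Zfhx3* and *Mab21l2* were each called in all 17 alternative settings, with the libraries of litter 2 left out among them. Their choice by the largest differences, alike in every library, favors this.

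Regulators of neuron differentiation moved in both directions. Of 10 neuronal bHLH and partner genes found in at least 10% of both populations, 6 were called higher and 1 lower, with a median log2 difference of 0.56, beside 0.01 over all such genes. The 6 genes and the median include *Neurod6*, which named the population and whose value is a description. The higher ones included *Neurod2* (log2 difference 1.66 ± 0.07 SE, edgeR FDR = 1.3e-08), which belongs to the family of *Neurod6*, and *Id2* (log2 difference 1.15 ± 0.10 SE, edgeR FDR = 1.0e-05), an inhibitor of bHLH factors. *Nhlh1*, a factor of newborn neurons found in under 10% of *Olig2*-zero neurons, differed by 1.63 ± 0.37, and *Atoh7*, a relative of *Atoh1* found in under 10% of members, by -1.59 ± 0.41, both a description. The level of *Nhlh1* rested on litter 2, with 18.8 and 56.2 CPM in its control and *Atoh1* S193A/- library and at most 5.44 CPM elsewhere, and in *Atoh1* S193A/- library 1 it was lower in members (1.18 CPM) than in *Olig2*-zero neurons (5.87 CPM).

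Genes known from the granule neuron lineage of the cerebellum were called higher in 6 of the 7 genes found in at least 10% of both populations, with 0 lower and a list median of 1.42. *Zic1* ranged over 215 to 316 CPM (median 247) in members against 37.3 to 93.0 CPM (median 76.8), with a log2 difference of 1.85 ± 0.10 (SE, edgeR FDR = 1.7e-07), and *Zic2* over 119 to 230.0 CPM (median 148) against 29.6 to 62.5 CPM (median 46.9), with a log2 difference of 1.74 ± 0.08 (SE, edgeR FDR = 6.0e-08). The axonal adhesion gene *Cntn2* (1.77 ± 0.10), the midbrain-hindbrain boundary homeobox gene *En2* (1.42 ± 0.20) and the neuroendocrine zinc finger gene *Insm1* (1.27 ± 0.17) were also higher. *Barhl1*, a target of *Atoh1* in this lineage found in under 10% of members, differed by -1.51 ± 0.25, as a description. These genes are not exclusive to granule neurons.

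Of 35 neuronal transcription factors found in at least 10% of both populations, 12 were higher and 14 lower, with a median of -0.11. Beside *Zfhx3*, the zinc finger gene *Bcl11a* (log2 difference -2.12 ± 0.17 SE, edgeR FDR = 3.4e-06) and the cut homeobox gene *Onecut2* (log2 difference -1.87 ± 0.11 SE, edgeR FDR = 2.2e-07) were lower in members. *Bcl11b* (-2.69 ± 0.22) and, of the Purkinje neuron list, *Rora* (-2.36 ± 0.20) and *Foxp4* (-1.03 ± 0.30) had a UMI in under 10% of members, and their differences are a description. The LIM homeobox genes parted, with *Lhx2* lower (log2 difference -1.83 ± 0.29 SE, edgeR FDR = 8.5e-04) and *Lhx9* not past the threshold (-0.13 ± 0.06).

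**Figure D2:**
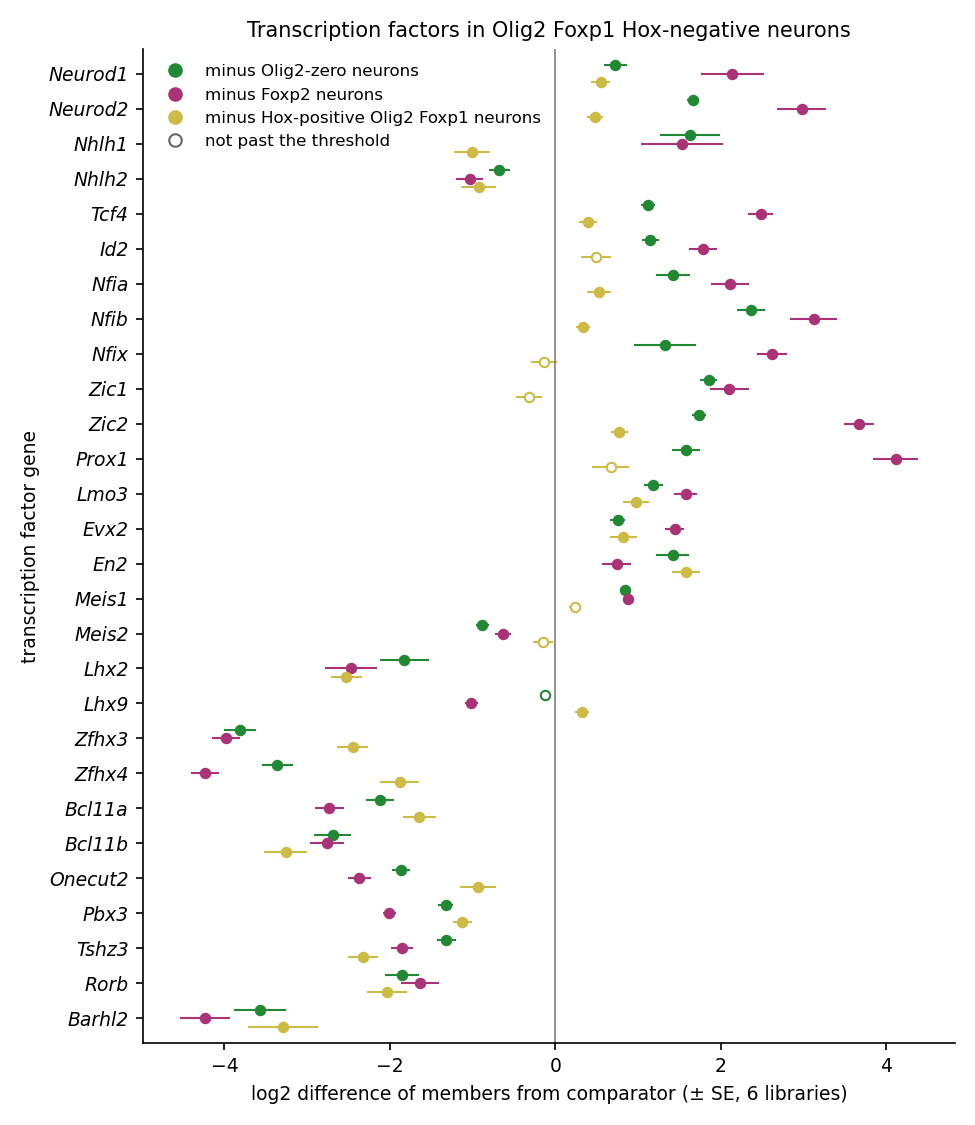
Log2 difference of 28 transcription factor genes between *Olig2* *Foxp1* Hox-negative neurons and each of 3 comparison populations, with bars of ± SE over 6 libraries. Filled points passed FDR under 0.05 with an absolute log2 difference over 0.25, and open points did not. *Nfib*, *Zic2* and *Neurod2* lie to the right of 0 and *Zfhx3*, *Zfhx4* and *Bcl11b* to the left in all 3 comparisons, which share the member cells. *Zfhx4* and *Bcl11b* were found in under 10% of members and *Zic2* in under 10% of *Foxp2* neurons, so the filter set the direction of these points.

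Surface and signaling genes split as well. Among 17 cadherins and protocadherins found in at least 10% of both populations, 9 were lower and 2 higher (median -0.38). *Cdh13* (-1.46 ± 0.14), *Cdh4* (-1.35 ± 0.19), *Pcdh10* (-1.04 ± 0.20) and *Cdh6* (-0.96 ± 0.16) were lower, and *Cdh10* (1.14 ± 0.15) higher. Of 31 axon guidance genes, 8 were higher and 7 lower (median -0.03). The receptor genes *Robo3* (1.93 ± 0.26), which permits midline crossing, and *Unc5a* (1.06 ± 0.16), a netrin receptor, were higher, whereas *Robo2* (-1.24 ± 0.19) was lower. The values of *Pcdh18* (-1.66 ± 0.27), of *Epha3* (-1.17 ± 0.21), of the semaphorin gene *Sema5a* (-1.71 ± 0.27), each found in under 10% of members, and of the ligand gene *Slit3* (1.01 ± 0.18), found in under 10% of *Olig2*-zero neurons, are a description. The level of *Robo3* rested on litter 2, with 107 and 427 CPM in its control and *Atoh1* S193A/- library and at most 13.6 CPM in the other 4.

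Of 24 transmitter receptor genes found in at least 10% of both populations, 4 were higher and 4 lower (median -0.09). The higher ones were the glutamate receptor subunit genes *Gria3* (0.79), *Grin2a* (0.62), *Grik1* (0.46) and *Grik2* (0.45). The lower ones included the GABA-A subunit gene *Gabrb1* (-0.94 ± 0.18) and the metabotropic receptor gene *Grm5* (-1.54 ± 0.32). The AMPA receptor subunit gene *Gria1* ranged over 0 to 2.96 CPM (median 1.96) in members against 16.1 to 21.1 CPM (median 17.0), a difference of -3.35 ± 0.33. *Gria1*, the NMDA subunit genes *Grin3a* (-2.27 ± 0.21) and *Grin2d* (-0.84 ± 0.25) and the GABA-A subunit gene *Gabra5* (-1.65 ± 0.22) were found in under 10% of members, and their differences are a description. None of the 3 tested glutamatergic genes was called, with *Slc17a6* at 181 ± 45.8 CPM against 159 ± 24.4 CPM (SD, n = 6 each), a log2 difference of 0.21 ± 0.09 (SE, edgeR FDR = 0.128). In the fibroblast growth factor pathway, the ligand gene *Fgf9* (0.65 ± 0.12) and the receptor gene *Fgfr1* (0.74 ± 0.12) were higher, and the intracellular factor *Fgf14* (-0.59 ± 0.17) and the adhesion protein gene *Flrt2* (-1.29 ± 0.14) lower. These were the 2 higher and 2 lower genes among 13 ligands, receptors and response genes found in at least 10% of both populations.

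Of 17 genes of neuron maturation, 1 was higher and 3 were lower (median -0.09). Members had more *Ina*, an intermediate filament (0.35 ± 0.05), and less *Nefm* (-0.66 ± 0.19), *Snap25* (-0.43 ± 0.07) and *Rbfox3* (-0.47 ± 0.12). The reporter WPRE was higher in members, at 258 to 393 CPM (median 300.0) against 167 to 266 CPM (median 215), with overlap (log2 difference 0.55 ± 0.06 SE, edgeR FDR = 4.3e-05), and *Atoh1* was not called (log2 difference -0.46 ± 0.20 SE, edgeR FDR = 0.129). *Hbb-bs*, a globin gene of red blood cells, was lower (log2 difference -3.92 ± 1.19 SE, edgeR FDR = 0.0369), but this came from control library 1 alone, where *Olig2*-zero neurons had 1995 CPM, and members were higher in the other 5. *Ttr* was called lower in members as well (log2 difference -1.37).

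**Figure D3:**
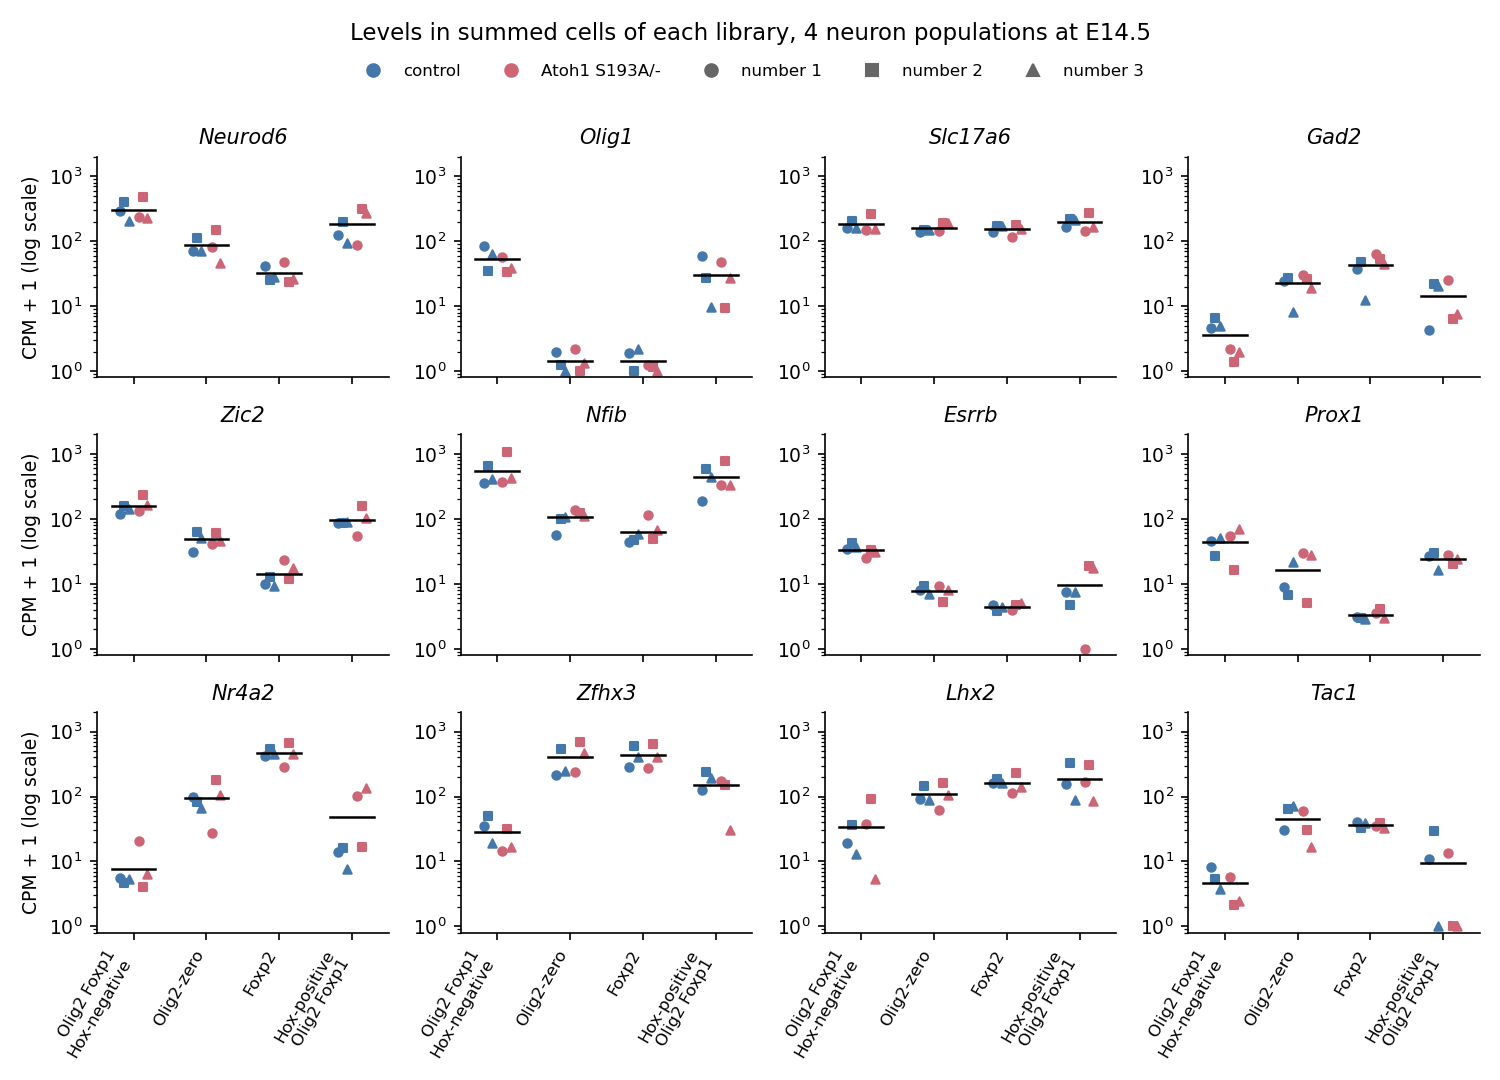
Level of 12 genes as CPM + 1 on a log scale in 4 neuron populations of E14.5, each point being the summed cells of a library, with color for genotype and shape for replicate number. Horizontal lines give the mean of 6 libraries. *Olig1* is near 0 CPM in the populations without *Olig2*, and *Nr4a2*, *Zfhx3* and *Tac1* are low in the *Olig2* *Foxp1* Hox-negative neurons, fewer than 10% of which had *Nr4a2* or *Tac1*.

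A second Hox-negative population, 2165 neurons with at least 2 UMIs of *Foxp2* and 0 of *Olig2*, differed more. Of 9638 genes tested, 24.8% were called, 11.2% higher and 13.6% lower in members, and among the 8799 found in at least 10% of both populations 21.9% were called, 10.0% higher and 11.9% lower. The median *Foxp2* neuron held 12519 to 16593.5 UMIs, in each library fewer than the median member. *Neurod6* stood at 22.4 to 47.0 CPM (median 26.5) in *Foxp2* neurons and *Fgf10* at 0 to 2.01 CPM (median 0.668), so that the levels of members lay above them by 3.34 and 5.01 on the log2 scale, given as a description.

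The next 6 genes were found in under 10% of *Foxp2* neurons, so their values are a description. *Prox1*, a homeobox gene, ranged over 15.4 to 69.9 CPM (median 47.4) in members and 1.83 to 3.15 CPM (median 2.05) in *Foxp2* neurons with a log2 difference of 4.11 ± 0.27. *Stc1*, which encodes the hormone stanniocalcin, ranged over 22.6 to 94.6 CPM (median 48.1) against 1.83 to 5.16 CPM (median 3.28) (4.03 ± 0.15), and *Kitl*, the ligand of the receptor Kit, over 51.9 to 213 CPM (median 132) against a mean of 8.94 ± 3.96 CPM (SD, n = 6), a difference of 3.88 ± 0.15. The ranges of the 3 genes did not overlap. The difference was 3.67 ± 0.18 for *Zic2*, 3.29 ± 0.30 for *Syce2* and 6.86 ± 0.26 for *Olig1*.

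Genes of inhibitory neurons lay at low levels in members. The summed level of the 11 genes of the GABA and glycine list was 14.2 to 39.6 CPM in members and 109 to 405 CPM in *Foxp2* neurons. *Slc32a1*, *Gad2*, *Lhx1* and *Lhx5* were found in under 10% of members, so they entered the test through the *Foxp2* neurons, and their direction was set by this filter. *Slc32a1*, the vesicular transporter of GABA and glycine, ranged over 0 to 1.24 CPM (median 0.522) in members and 11.0 to 43.5 CPM (median 17.3) in *Foxp2* neurons (-4.87 ± 0.30). *Gad2* differed by -3.76 ± 0.38 and the LIM homeobox genes *Lhx1* and *Lhx5* by -4.06 ± 0.29 and -3.70 ± 0.47. *Slc17a6* was found in 69.9% of *Foxp2* neurons and *Gad2* in 16.9%, so the comparison population held cells with each. The Purkinje list genes *Calb1*, which encodes the calcium buffer calbindin (-4.26 ± 0.36), and *Rora* (-4.13 ± 0.14) were likewise found in under 10% of members. *Bcl11a* of that list, which was found in over 10% of both populations, was lower (log2 difference -2.73 ± 0.18 SE, edgeR FDR = 8.6e-07).

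Other genes found in under 10% of members, again a description, had the largest negative differences, among them the transcription factors *Nr4a2* (-6.25 ± 0.30), *Prdm6* (-6.13 ± 0.32), the Iroquois gene *Irx4* (-5.59 ± 0.29) and *Barhl2* (-4.23 ± 0.30). *Nr4a2* ranged over 3.08 to 19.5 CPM (median 4.43) in members against 286 to 663 CPM (median 452). *Dlk1*, a noncanonical Notch ligand (-4.98 ± 0.22), and the phosphatase gene *Ptpre* (-4.57 ± 0.18) belong to them as well. The neuropeptide gene *Sst*, found in over 10% of both populations, stood at 584 to 1242 CPM (median 1046) in *Foxp2* neurons and 114 to 370.1 CPM (median 147) in members (log2 difference -2.47 ± 0.14 SE, edgeR FDR = 4.3e-07), without overlap.

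Of 9 bHLH and partner genes found in at least 10% of both populations, 6 were higher and 1 lower (median 1.78). The 6 genes and the median again include *Neurod6*, which named the population. *Neurod2* rose by 2.97 ± 0.29, *Tcf4* by 2.48 ± 0.15 and *Neurod1* by 2.14 ± 0.38. With the same limit, 5 of 6 granule lineage genes were higher and 0 lower, 12 of 33 neuronal transcription factors higher and 13 lower, 10 of 30 guidance genes higher and 10 lower, 3 of 17 cadherins higher and 7 lower, and 4 of 22 transmitter receptors higher and 7 lower. The guidance receptor gene *Epha4* (1.68 ± 0.23) was higher. *Etv1*, an ETS factor (-3.31 ± 0.30), the cadherin gene *Cdh22* (-2.92 ± 0.24) and *Gria1* (-3.95 ± 0.32), found in under 10% of members, are a description, as are *Unc5a* (1.84 ± 0.20) and *Atoh1* (0.84 ± 0.16), found in under 10% of *Foxp2* neurons. *Atoh1* ranged over 7.11 to 21.5 CPM (median 9.82) in members against 4.32 to 10.8 CPM (median 5.77), a low level in both.

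The same marker pair also occurred in 128 neurons with at least 2 UMIs of the 4 Hoxb genes, 11 to 37 per library, here called Hox-positive *Olig2* *Foxp1* neurons. They were deeper, with a median of 20473 to 27440 UMIs per cell. Of 10449 genes tested, 4.57% were called, 1.46% higher and 3.1% lower in members, and among the 9279 found in at least 10% of both populations 3.84% were called, 1.63% higher and 2.21% lower. *Neurod6* was found in 82.6% of these neurons and *Olig1* in 26.4%, with levels of 85.9 to 312 CPM (median 159.7) and 8.47 to 58.7 CPM (median 26.2). *Olig2* stood at 141 ± 25.7 CPM (SD, n = 6) in them and at 315 ± 43.9 CPM in members.

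Hox genes outside the limits followed those inside. All 13 tested Hox genes that took no part in the choice were lower in members, with log2 differences from -6.02 to -3.83, which the choice by *Hoxb2* to *Hoxb5* makes a description. *Hoxa5* ranged over 2.31 to 9.6 CPM (median 8.05) in members against 74.8 to 611 CPM (median 289), and *Hoxc6*, a more caudal gene, over 0 to 1.2 CPM (median 0.55) against 1.06 to 149.6 CPM (median 21.2). *Hoxa2*, the most rostrally expressed Hox gene, was found in 3.63% of members and 44.0% of Hox-positive neurons.

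Genes other than Hox genes also differed along this division. The forkhead gene *Foxb1* ranged over 0 to 1.55 CPM (median 0.611) in members and 17.5 to 128 CPM (median 61.8) in Hox-positive neurons (-6.20 ± 0.35), *Pou4f1*, a POU factor, over 0.906 to 3.2 CPM (median 1.07) against 6.5 to 108 CPM (median 36.6) (-4.46 ± 0.34), and *Lhx2* over 4.34 to 91.9 CPM (median 27.3) against 84.5 to 326 CPM (median 159), with a log2 difference of -2.53 ± 0.19 (SE, edgeR FDR = 4.9e-09). *Foxb1* and *Pou4f1* were found in under 10% of members and entered the test through the Hox-positive neurons, so their values are a description, whereas *Lhx2* was found in over 10% of both. Higher in members were *Esrrb* (log2 difference 1.98 ± 0.31 SE, edgeR FDR = 2.6e-04), *En2* (log2 difference 1.58 ± 0.17 SE, edgeR FDR = 1.9e-06), the complexin gene *Cplx2* (log2 difference 1.48 ± 0.12 SE, edgeR FDR = 3.4e-08) and *Unc13c* (log2 difference 1.23 ± 0.19 SE, edgeR FDR = 2.6e-04), which primes synaptic vesicles. *En2* ranged over 54.6 to 119 CPM (median 75.5) against 11.3 to 54.6 CPM (median 28.6), and the Iroquois genes *Irx3* (0.88 ± 0.20) and *Irx5* (0.99 ± 0.22) were higher as well. *Zmat4* (1.20 ± 0.14) and *Slc35f1* (1.20 ± 0.12) were called in each setting tried, which the choice of these genes favors as well. The C2 domain gene *Mctp1* (1.71 ± 0.27) was not called without litter 2 (1.23, edgeR FDR = 0.0754), and *Nog*, the gene of the BMP antagonist noggin (1.20 ± 0.26), was not called without control library 2 (0.89, edgeR FDR = 0.0886) or under the 5% mitochondrial limit (0.94, edgeR FDR = 0.174). Leaving out control library 2 moved the number of called genes from 477 to 248, and leaving out both libraries of litter 2 to 194.

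Of 12 genes of the neuronal bHLH list found in at least 10% of both populations, 5 were higher and 3 lower (median 0.43). The 5 genes and the median include *Neurod6*, which named the population. *Olig1* (log2 difference 0.94 ± 0.22 SE, edgeR FDR = 0.0137) and *Neurod1* (0.55 ± 0.11) were higher, whereas *Nhlh1* (-1.01 ± 0.21) was lower. *Nhlh1* was found in 4.05, 27.3 and 3.82% of the members of litters 1 to 3, and its call was not tried without litter 2. *Atoh7*, found in under 10% of members, differed by -3.14 ± 0.44, as a description, with a range of 3.25 to 248 CPM (median 42.1) in Hox-positive neurons. Of 17 genes of neuron maturation, 1 was higher and 4 were lower in members (median 0.08). The lower ones included the neurofilament genes *Nefm* (-0.96 ± 0.16) and *Nefl* (-0.60 ± 0.11), whereas the intermediate filament gene *Ina* was not called. None of the 3 glutamatergic genes was called (*Slc17a6* -0.09 ± 0.08), and *Gad2*, found in 2.0% of members and 13.4% of Hox-positive neurons, entered the test through the latter. A single library, control 1, had 21218 CPM of *Ttr* in its Hox-positive neurons.

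The members were not uniform. For each gene with a UMI in 10 to 90% of members, the variance of counts within a library was divided by what counting error alone would give, averaged over libraries. Of 8336 such genes, 7943 remained after kinds that are not named here, such as mitochondrial and ribosomal protein genes, were left out. Their median ratio was 1.08, and 197 of them exceeded 2. *Ttr* had the highest ratio (455), which ran from 0.792 to 2723 between libraries. It was followed by *Sst* (31.8), the radial glia gene *Fabp7* (21.5), the cell cycle inhibitor gene *Cdkn1c* (20.9), *Id2* (18.7), the calmodulin-binding protein gene *Pcp4* (14.2), *Nfib* (10.9) and *Zfhx3* (10.8). *Nr2f2*, an orphan nuclear receptor (9.73), *Nrgn* (9.64), *Vim* (9.31) and the transcription factor *Maf* (8.65) completed the 12 highest. The means of *Fabp7* and *Vim* rested on 1 library each, and several ratios differed widely between libraries. The ratio of *Fabp7* ran from 0.91 to 108, that of *Vim* from 2.85 to 32.7, that of *Zfhx3* from 1.94 to 24.4, that of *Nrgn* from 0.82 to 24.3 and that of *Cdkn1c* from 2.97 to 36.9 between libraries. *Pcp4*, *Nfib*, *Nr2f2* and *Id2* lay above 8 in each library. *Sst* was found in 37.8% of members at 370.1, 114 and 129.5 CPM in control libraries 1 to 3 and 114, 165 and 233 CPM in *Atoh1* S193A/- libraries 1 to 3. *Neurod6* was found in 93.7% of the members with *Sst* and in 90.1% of those without.

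Some variable genes were high in the same cells. Correlations were computed over 781 members thinned to 8000 UMIs and centered within libraries, so they share neither depth nor library level, and they are a description of cells from 6 embryos. *Maf* and *Kitl* had a Pearson r of 0.61 (libraries 0.22 to 0.75), *Kitl* and *Prox1* of 0.56 (libraries -0.02 to 0.67) and *Maf* and *Prox1* of 0.56 (libraries -0.06 to 0.71). The lowest library values of both pairs with *Prox1* lay near 0, so *Prox1* did not go with *Maf* and *Kitl* in every library. In the thinned cells, a UMI of *Kitl* was found in 62.8% of the members with *Maf* and in 16.3% of those without. *Nr2f2* went with *Id4*, another bHLH inhibitor (r = 0.48, libraries 0.43 to 0.62). These genes were not separate from the first ones, since *Maf* was also related to *Id4* (r = 0.44, libraries 0.30 to 0.58) and to *Nr2f2* (r = 0.39, libraries 0.24 to 0.54). *En2* went with *Id2* (r = 0.47, libraries 0.19 to 0.62) and *En1* (r = 0.43, libraries 0.24 to 0.57), and *Nfib* went with *Zic1* (r = 0.45, libraries 0.38 to 0.54) and *Tesc* with *Hrk* (r = 0.44, libraries 0.29 to 0.61).

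Other pairs were negatively related. *Nr2f2* and *En2* had an r of -0.45 (libraries -0.51 to -0.37), and *Cdkn1c* was negatively related to *Id4* (r = -0.47, libraries -0.62 to -0.30) and to *Nr2f2* (r = -0.42, libraries -0.57 to -0.33). In thinned cells a UMI of *En2* was found in 12.5% of the members with *Nr2f2* and in 58.4% of those without it. Only 59 of 781 thinned members had both, 412 had *Nr2f2* alone, 181 *En2* alone and 129 neither. *Neurod6* and *Fgf10* were only weakly related to the other genes of the matrix. *Olig2* and *Foxp1* chose the members, so their values are limited by that choice and their relations are not described.

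**Figure D4:**
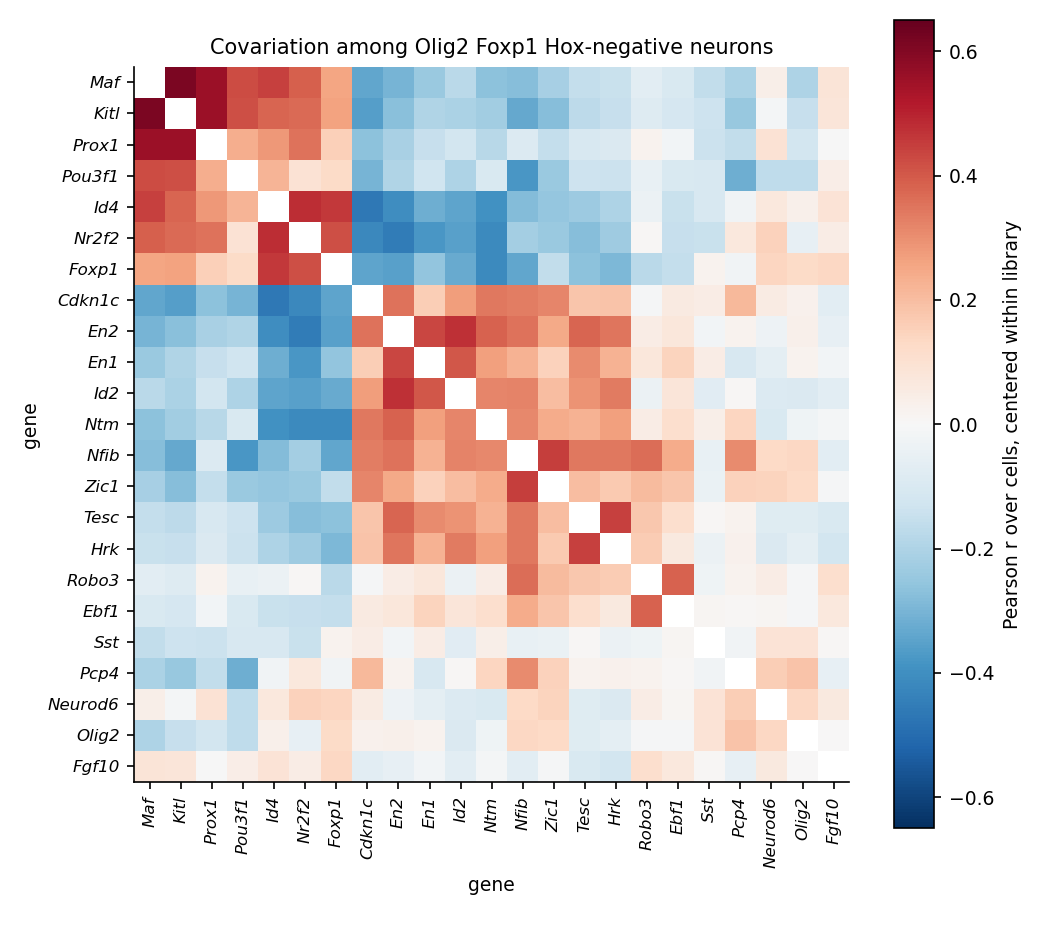
Pearson r between 23 genes over 781 *Olig2* *Foxp1* Hox-negative neurons thinned to 8000 UMIs and centered within each library, with red for positive and blue for negative values. *Maf*, *Kitl*, *Prox1*, *Id4* and *Nr2f2* are red against each other at the upper left, and all 5 are blue against *En2*.

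The levels within members also differed between litters. The samples with the same replicate number were read as a control and an *Atoh1* S193A/- littermate, which the sample titles do not state. A test of the number beside the genotype, added after the data were seen, called 1468 of 9885 genes (14.9%) by edgeR at FDR under 0.05. Here too a gene entered when it was found in at least 10% of the members of any litter, so a gene found in fewer in another litter is given as a description and left out of the counts below. Of the 8645 genes found in at least 10% of the members of each litter, 1206 (14%) were called, 601 with the highest mean in litter 2, 541 with the lowest and 64 with litter 2 between the others. Over all 9885 genes, called or not, litter 2 was highest in 44.1%, lowest in 35.1% and between in 20.8%. Among the 1468 called genes the shares were 44.8, 50.5 and 4.70%. The share with litter 2 highest was thus close to that over all genes. The litter, the day of collection and the sequencing run cannot be told apart here. Sex is partly bound up with the litter too, since the paper lists both embryos of litter 2 as male and both of litter 3 as female. For litter 1 it lists a female control and a male *Atoh1* S193A/- embryo. Median mitochondrial shares of members were 4.12 and 3.47% in the control and *Atoh1* S193A/- library of litter 2 and 4.84 to 6.36% in the other 4. Of 8 such genes that respond to dissociation, 1 was called with litter 2 lowest, *Fos*, and 0 with it highest, and the summed level of the list was 665 and 1069 CPM in litter 2 and 916 to 1206 CPM in the other 4 libraries. The immediate early gene *Fos* stood at 132 and 197 CPM in the control and *Atoh1* S193A/- library of litter 1, 13.2 and 33.1 in litter 2 and 99.5 and 175 in litter 3 (edgeR FDR = 3.9e-06). The part of these measures in the litter differences was not tested.

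Lists of neuron genes moved in both directions. Of 31 guidance genes, 5 were called with litter 2 highest and 4 with it lowest, and of 17 maturation genes 6 and 5. Over all 8645 such genes, the counts were 601 and 541. *Robo3* and *Nhlh1* were found in under 10% of the members of litters 1 and 3 and are a description. *Robo3* had 13.6 and 12.4 CPM in litter 1, control first, 107 and 427 CPM in litter 2 and 5.26 and 3.85 CPM in litter 3. *Nhlh1* had 5.44 and 1.18, then 18.8 and 56.2, then 2.78 and 2.89 CPM. *Ebf1*, a helix-loop-helix factor of differentiating neurons, had 190.3 and 150.2, 493 and 891, and 155 and 167 CPM (edgeR FDR = 8.8e-05). In each of the 3 genes both littermates of litter 2 lay above the other 4 libraries. *Cntn2*, *Neurod1* and *Neurod2* behaved alike, with edgeR FDR values of 1.1e-04, 7.4e-05 and 4.5e-04. *Nefm* had 139 and 145, 319 and 537, and 146 and 151 CPM in the litters in order (edgeR FDR = 1.2e-04). Other populations moved by litter too. The summed level of 49 neuronal transcription factors was highest in both libraries of litter 2 in members (11766 and 14010 CPM, against 7903 to 9869 in the other 4), in *Olig2*-zero neurons (10455 and 10899.7 CPM, against 7513 to 8607) and in *Foxp2* neurons (10504 and 10926 CPM, against 7275 to 8869). *Nefm* did not follow in *Olig2*-zero neurons, with 458 and 284, 399.7 and 416, and 299 and 252 CPM.

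Other genes were low in litter 2. *Nts*, which encodes the neuropeptide neurotensin, had 48.5 and 76.3 CPM in litter 1, 0.40 and 1.15 CPM in litter 2 and 64.6 and 29.4 CPM in litter 3, a description, since it was found in under 10% of the members of litters 1 and 2. *Cnr1*, the cannabinoid receptor gene, had 61.6 and 93.4, 20.8 and 13.8, and 82.9 and 95.9 CPM (edgeR FDR = 1.8e-04), and *Prox1* 44.4 and 53.2, 26 and 15.4, and 50.4 and 69.9 CPM (edgeR FDR = 0.0036). Of 14 cadherins 6 were called with litter 2 lowest and 0 with it highest, and of 19 transmitter receptors 6 lowest and 0 highest, whereas of 34 neuronal transcription factors 16 were highest and 4 lowest. Over all 8645 genes found in each litter, 541 were called with litter 2 lowest and 601 with it highest.

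**Figure D5:**
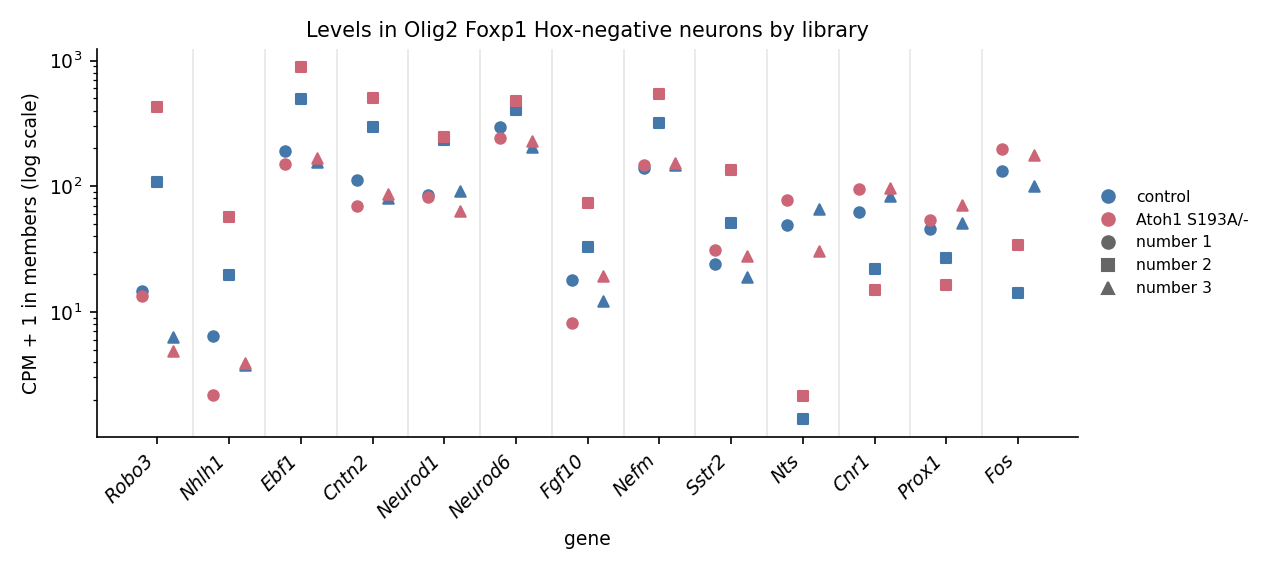
Level of 13 genes in *Olig2* *Foxp1* Hox-negative neurons as CPM + 1 on a log scale, 1 point per library, with color for genotype and shape for replicate number. The squares, both libraries of litter 2, lie above the other points for *Robo3* to *Sstr2* and below them for *Nts* to *Fos*.

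No gene was called between genotypes within the members. Of 9597 genes tested, 0 (0%) passed in either direction by edgeR, with 108 at an unadjusted p under 0.05, and DESeq2 also called 0. The 108 are fewer than this limit passes with no effect. The fit held no term for the litter, so differences between litters counted as error and could hide genotype differences. A fit with the litter as a block is given in the last section. In simulated counts of this size the same test found 53% of genes changed 2-fold and 99% of those changed 4-fold. The simulation gave all genes the same dispersion, held no differences between litters and changed only genes of at least 20 CPM. These shares therefore do not carry over to the real counts, where litters differed. Even in the simulation, a difference of 2-fold in single genes was detected only in part. *Neurod6* differed by 0.03 ± 0.31 on the log2 scale in *Atoh1* S193A/- against control, *Olig1* by -0.56 ± 0.34 and *Lhx9* by 0.29 ± 0.17 (SE, none called). *Atoh1* stood at 10.9, 10. and 7.11 CPM in control libraries 1 to 3 and 7.69, 21.5 and 9.64 CPM in *Atoh1* S193A/- libraries 1 to 3, a difference of 0.48 ± 0.39 (SE, not called), and WPRE differed by 0.22 ± 0.16.

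The 3 genes with the smallest unadjusted p are given as values. *Axin2*, a feedback gene of Wnt signaling, had 5.44, 8.0 and 5.87 CPM in control libraries 1 to 3 and 12.4, 18.8 and 14 CPM in *Atoh1* S193A/- libraries 1 to 3, a log2 difference of 1.20 ± 0.28 (SE, edgeR FDR = 1). *Serpinh1*, a collagen chaperone gene, had 2.72, 6.4 and 3.71 CPM in control libraries 1 to 3 and 8.87, 14.6 and 13.5 CPM in *Atoh1* S193A/- libraries 1 to 3 (1.49 ± 0.36, edgeR FDR = 1). In both the groups did not overlap, but the choice of the smallest p among all genes favors this, so it adds no support. *Serpinh1* was found in only 8.56, 11.7 and 6.87% of the members of litters 1 to 3. The third, *AC160336.1*, had 176, 203 and 1.85 CPM in control libraries 1 to 3 and 0.591, 3.08 and 2.41 CPM in *Atoh1* S193A/- libraries 1 to 3, and was high in the 2 libraries counted by Cell Ranger 3.1.0 and in no other. With the litter as a block it was the only gene called. The effect of the software version was not tested for it.

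A test of whether the genotype effect in members differed from that in *Olig2*-zero neurons called 0 of 9957 genes (0%), with 292 at an unadjusted p under 0.05 and 0 called by DESeq2. The 292 are also fewer than this limit passes with no effect. *Zfhx4* had the smallest p, with a difference of effects of -1.39 ± 0.23 (SE, edgeR FDR = 0.847). In members it stood at 14.9, 25.2 and 9.58 CPM in control libraries 1 to 3 and 7.1, 11.2 and 5.3 CPM in *Atoh1* S193A/- libraries 1 to 3, with overlapping groups.

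Few cells at later stages met the same limits. At E18.5 they held in 37 of 55054 cells (0.0672%), with 5, 3 and 13 cells in control and 7, 1 and 8 in *Atoh1* S193A/- libraries. Of these 37 cells, 33 had a UMI of *Neurod6*, 28 of *Olig1*, 7 of *Fgf10*, 37 of *Slc17a6* and 0 of *Sox10*, which allows a share of up to 8.11% by counting error alone. At postnatal day 5, in 2 libraries of labeled cells from pontine nuclei pooled over several control pups, they held in 39 and 15 cells, 54 of 17908 (0.302%). These cells were of another kind, since 50 of them had a UMI of *Sox10*, 46 of *Mbp* and 50 of *Olig1*, genes of the oligodendrocyte lineage, whereas 13 had *Slc17a6* and 1 had *Neurod6*. Tissue and dissection differed from the embryonic libraries, and no test was made between stages.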

How the data were processed

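The authors sorted tdTomato+ cells, made libraries with the 10x Genomics 3′ kit, and used Cell Ranger on a mouse genome with WPRE added. They deposited raw, unnormalized UMI counts of 31054 genes for each called cell. Per the file headers, 2 E14.5 libraries came from Cell Ranger 3.1.0 and 4 from 5.0.1. No column was left unassigned to a sample (0).

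Members and gene lists were chosen with earlier results of these data known. UMIs were summed per library and population and compared by edgeR 4.0.16 (TMM, quasi-likelihood F test, R 4.3.3) after genes found in under 10% of the cells of both groups were left out, with Benjamini-Hochberg adjustment, and with the library as block between populations. DESeq2 1.42.0 was an alternative. Libraries, not cells, were the replicates. Differences are log2, members minus comparison population or *Atoh1* S193A/- minus control. Shares were compared by exact permutation. Cycling cells were those with at least 4 UMIs of *Mki67* and *Top2a* together and 0 of *Mapt*. Doublets were scored with Scrublet in scanpy 1.11.5. The tests were tried on simulated counts with 100 genes per fold size.

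Named genes were, for each population comparison, the 8 with the largest differences in each direction among called genes that moved alike in every library with a mean of at least 20 CPM, then genes of fixed lists. Genes in the plots of transcription factors and of litters, and those named for litters, were chosen after their values were seen. Deviations from the genotype means correlated between same-numbered libraries with r = 0.416, 0.736 and 0.627 over 6197 genes, each the highest value for its library, so the numbers were taken as litters. The labels' protocol states that each mutant embryo was taken with a littermate control. Gene positions are from GENCODE M21. Some genes that met the naming rule are not reported here.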

Additional observations from a re-analysis of the deposited data

How the results depend on the processing

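The 16 genes with the largest differences in each population comparison and the 3 of each genotype test kept their direction in the settings tried. These settings were not run for the list genes. For genes found in under 10% of 1 population, the direction follows from the filter. The 16 genes were also chosen as called with the same direction in every library, and the 3 by the smallest p. The kept direction was therefore largely set by the choice and adds no support. With DESeq2, 784 genes were called against *Olig2*-zero neurons, 1569 against *Foxp2* neurons and 265 against Hox-positive neurons, beside 1494, 2393 and 477 by edgeR. Without the library as a block, 684 genes were called against *Olig2*-zero neurons. Without a filter on low genes, 742 were called against Hox-positive neurons, 2 between genotypes and 43 in the difference of genotype effects (beside 477, 0 and 0), and under 5% mitochondrial UMIs, where 3 libraries had enough cells, 317 against Hox-positive neurons. Without both libraries of number 2, an alternative chosen after seeing the data, 194 were called against Hox-positive neurons and 1 in the difference of genotype effects. Leaving out a library at a time gave 248 to 515 calls against Hox-positive neurons, 1151 to 1412 against *Olig2*-zero neurons, 1988 to 2362 against *Foxp2* neurons, 0 to 1 between genotypes (1 without control library 3) and 0 in the difference of effects. With the replicate number as a block (paired littermates), 1 gene was called between genotypes and no other call changed. Of the 9597 genes, 515 then had an unadjusted p under 0.05, about as many as this limit passes with no effect at all. The log2 difference of members' shares stayed between -0.76 and -0.20 in all settings, and between -0.73 and -0.32 with a library left out, with the lowest p of 0.1. The Hox-positive comparison could not be fitted with at least 2 UMIs of *Olig2* or with thinned cells, since fewer than 3 libraries held 10 such cells. The causes of these changes were not tested. Each library gave between 1691119 and 3234728 UMIs of members, and the last comparison rested on 128 Hox-positive neurons.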
